A study of Mus musculus with 38 samples.

Results

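The transcription factors of the AP-1 group and other immediate early genes were followed at their promoters in the soleus muscle of mice that entered, left or were kept out of daily torpor. The 10 genes were *Fos*, *Fosb*, *Fosl2*, *Jun*, *Junb*, *Jund*, *Egr1*, *Ier2*, *Maff* and *Atf3*. A promoter was a CAGE cluster on the strand of the gene with its highest position no more than 500 bp from one of the 5′ ends that GENCODE vM21 annotates (mm10). This gave 11 of the 10819 clusters in the table. They belonged to 9 of the 10 genes, with 2 clusters each for *Fosl2* and *Atf3*, and *Fosb*, which had no such cluster, was not analysed here.

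Each library was made from 1 or both soleus muscles of a single male C57BL/6J mouse, in the ninth week of life on average by the methods of the study, and all animals were sampled shortly before lights on. In experiment #1, 4 Pre mice were sampled on day 1 with free access to food, 8 Mid mice on day 2 after food had been withdrawn at a low ambient temperature, and 4 Post mice on day 3 after food had been returned. Also on day 2, 4 HiT mice had been fasted at a high ambient temperature, 4 Fed mice had kept their food at the low temperature, and 4 Dep mice had been fasted at the low temperature but kept from torpor by gentle touching. Experiment #2 repeated the Pre (2 mice), Mid (5 mice) and Post (3 mice) groups in other mice. Group names follow the sample titles. For the Fed mice the condition label reads starvation, and the design text of the series gives food to the HiT mice, but the methods of the study, followed here, describe the HiT mice as fasted and the Fed mice as fed. Mid mice were in a torpor bout or between bouts when sampled, so the group mixes metabolic states, and Dep mice differ from Mid mice by handling as well as by the absence of torpor. Pre and Post mice differ from Mid mice by food and by day as well as by torpor, and these cannot be told apart.

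Immediate early genes are transcribed within minutes of a stimulus, without new protein synthesis, and many of their RNAs decay quickly. AP-1 is a dimer of basic leucine zipper (bZIP) proteins in which a Jun protein pairs with itself, a Fos protein or an ATF protein, and which binds the TRE or the related CRE in DNA. In muscle these genes respond to contraction, stretch, injury and stress hormones, and ATF3 is a bZIP protein induced by many forms of cellular stress.

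CAGE counts 1 tag for the capped 5′ end of an RNA, so the levels, in tags per 1000000 mapped tags (TPM), carry no length effect and can be compared between genes. Libraries held 18257657 to 39176649 tags in clusters in experiment #1 and 9359994 to 20914855 in experiment #2, so that 1 tag was worth 0.0242 to 0.0514 TPM in the former. The slow muscle markers, among them *Myh7*, summed to 7856 to 14975 TPM in the HiT mice and to 13353 to 22231 TPM in the other mice of experiment #1. Fast glycolytic markers summed to 2859 to 8597 TPM in experiment #1 and to 11810 to 17254 TPM in experiment #2. Among them, *Myh4* had a mean of 4.27 TPM in the HiT mice. Its means were 76.3 to 661 TPM in the other groups of experiment #1, with SDs of 81.4 to 670 TPM. *Mylpf*, in contrast, had its highest mean of that experiment in the HiT mice, at 1794 TPM. Macrophage markers (7 of 8 with a cluster) summed to 143 to 430 TPM in the HiT mice and to 33.9 to 99.9 TPM in the other 5 groups, so every HiT mouse stood above every other mouse of the experiment. Their part in the HiT results below was not tested, and in whole muscle, fewer cells of a type and less RNA per cell cannot be told apart. The mouse Dep 1 had neutrophil markers at 116.8 TPM, where no other mouse of experiment #1 passed 1.74 TPM. The mouse Dep 3 had the highest adipocyte markers (1921 TPM). The part of the neutrophil and adipocyte markers in the Dep results was not tested. In TPM without TMM scaling, Dep 3 had the highest level of its group at 9 of the 11 promoters, and HiT 4 the lowest at 10 of 11. The TMM factor was the highest of its group for Dep 3 (1.09) and the lowest of the experiment for HiT 4 (0.679). A lower factor raises the scaled level, and how often these mice ranked so over all clusters was not counted.

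The promoters differed in their place and shape. The *Fos* cluster (chr12:85473811-85473971, plus strand) was 161 bp wide with its peak 2 bp from the annotated 5′ end. The *Egr1* cluster was 129 bp wide. Against a median of 281 bp over all clusters, the *Jund* cluster (chr8:70698836-70700433, plus strand) was 1598 bp wide. *Junb* (chr8:84978590-84978799), *Ier2* (chr8:84662749-84662919) and *Jun* (chr4:95051779-95052265) lay on the minus strand, and *Maff* (chr15:79347424-79347706) on the plus strand. The 2 *Fosl2* promoters (chr5:32135739-32136218 and chr5:32136238-32136882, plus strand) had peaks 623 bp apart and are called upstream and downstream. The canonical *Atf3* promoter (chr1:191183140-191183262, minus strand) peaked at 191183256, which is position 78 counted from the RefSeq start as 1. The upstream *Atf3* promoter (chr1:191217868-191218088, minus strand) peaked at 191217942, 34686 bp 5′ of the canonical peak and near the annotated 5′ end of longer transcripts of the gene.

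RefSeq promoter windows (GRCm38.p6, from 250 bases before to 50 after the start) within 100 bp of the CAGE peak were found for 6 of the 11 promoters. The windows of *Atf3*, *Maff*, *Fos* and *Junb* are shown, because these genes carried the largest fold changes that passed the test, and the window of *Atf3* belongs to its canonical promoter. Capitals mark the motifs found, searched on both strands: the CRE (TGACGTCA), its TGACG core, the TRE (TGANTCA), the TATA box (TATAAA), the EGR site (GCGGGGGCG) and the CArG box. They lie at chr1:191183284-191183583 (minus strand), chr15:79347270-79347569 (plus), chr12:85473640-85473939 (plus) and chr8:84978699-84978998 (minus), and read 5′ to 3′:
Atf3: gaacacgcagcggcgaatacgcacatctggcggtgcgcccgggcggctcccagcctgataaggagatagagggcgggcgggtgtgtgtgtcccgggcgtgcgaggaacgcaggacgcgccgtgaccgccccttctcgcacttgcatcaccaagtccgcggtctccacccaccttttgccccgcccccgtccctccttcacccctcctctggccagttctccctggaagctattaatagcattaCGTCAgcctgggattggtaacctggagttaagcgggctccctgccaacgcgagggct
Maff: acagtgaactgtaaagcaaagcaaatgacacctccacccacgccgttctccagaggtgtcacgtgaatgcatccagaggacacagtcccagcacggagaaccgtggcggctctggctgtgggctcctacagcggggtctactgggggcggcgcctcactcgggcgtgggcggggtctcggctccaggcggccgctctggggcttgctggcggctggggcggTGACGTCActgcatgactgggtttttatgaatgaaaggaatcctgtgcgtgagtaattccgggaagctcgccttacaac
Fos: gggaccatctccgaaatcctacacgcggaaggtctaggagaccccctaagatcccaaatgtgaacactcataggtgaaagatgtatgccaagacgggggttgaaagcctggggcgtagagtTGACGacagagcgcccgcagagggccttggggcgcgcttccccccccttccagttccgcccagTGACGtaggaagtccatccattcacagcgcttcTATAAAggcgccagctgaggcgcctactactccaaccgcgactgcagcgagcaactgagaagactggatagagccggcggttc
Junb: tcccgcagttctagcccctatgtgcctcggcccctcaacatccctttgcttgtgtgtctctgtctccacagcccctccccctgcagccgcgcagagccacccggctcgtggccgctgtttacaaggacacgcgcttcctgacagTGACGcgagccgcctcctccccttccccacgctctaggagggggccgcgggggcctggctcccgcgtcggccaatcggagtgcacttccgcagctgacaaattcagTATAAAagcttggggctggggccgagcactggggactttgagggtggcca

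The *Maff* window held a full CRE 29 to 22 bases before the start, which was 49 to 42 bases before the CAGE peak. A full CRE was in 1.79% of all 32851 RefSeq windows and in 3.34% of the 7521 windows with a cluster within 500 bp of the start. The TATA box lay 31 to 26 bases before the CAGE peak of *Fos* and 28 to 23 bases before that of *Junb*, and 13.6% of all windows and 7.35% of those near a cluster held one. The TGACG core was found in the *Fos* window in 2 places, in *Junb*, in *Atf3* (84 to 80 bases before the CAGE peak, which itself lies beyond the end of the window) and within the CRE of *Maff*. It was in 20.8% of all windows and in 34.9% of those near a cluster. The TRE (7.81% and 4.60% of windows), the EGR site (2.91% and 6.04%) and the CArG box (1.63% and 1.53%) were not found in these letters of the 4 windows.

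Of the 11 promoters, 10 differed among the 6 groups of experiment #1 at an FDR below 0.05 (edgeR quasi-likelihood F test over 10776 clusters), against 70.6% of all clusters. The exception was *Jund*, with an FDR of 0.115. From Pre to Mid, 6 promoters were up-regulated, where 15.4% of all clusters were. They were those of *Junb*, *Maff*, *Fosl2* (both) and *Atf3* (both), while *Fos*, *Jun*, *Jund*, *Egr1* and *Ier2* did not pass the threshold. From Mid to Post, 7 promoters were down-regulated, where 17.5% of all clusters were. In the HiT mice *Junb* stood above every other mouse of the experiment. In TPM without TMM scaling, *Fos* stood there above every other mouse but Dep 3 (6.03 TPM, against 5.94 TPM in HiT 4).

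**Figure D1:**
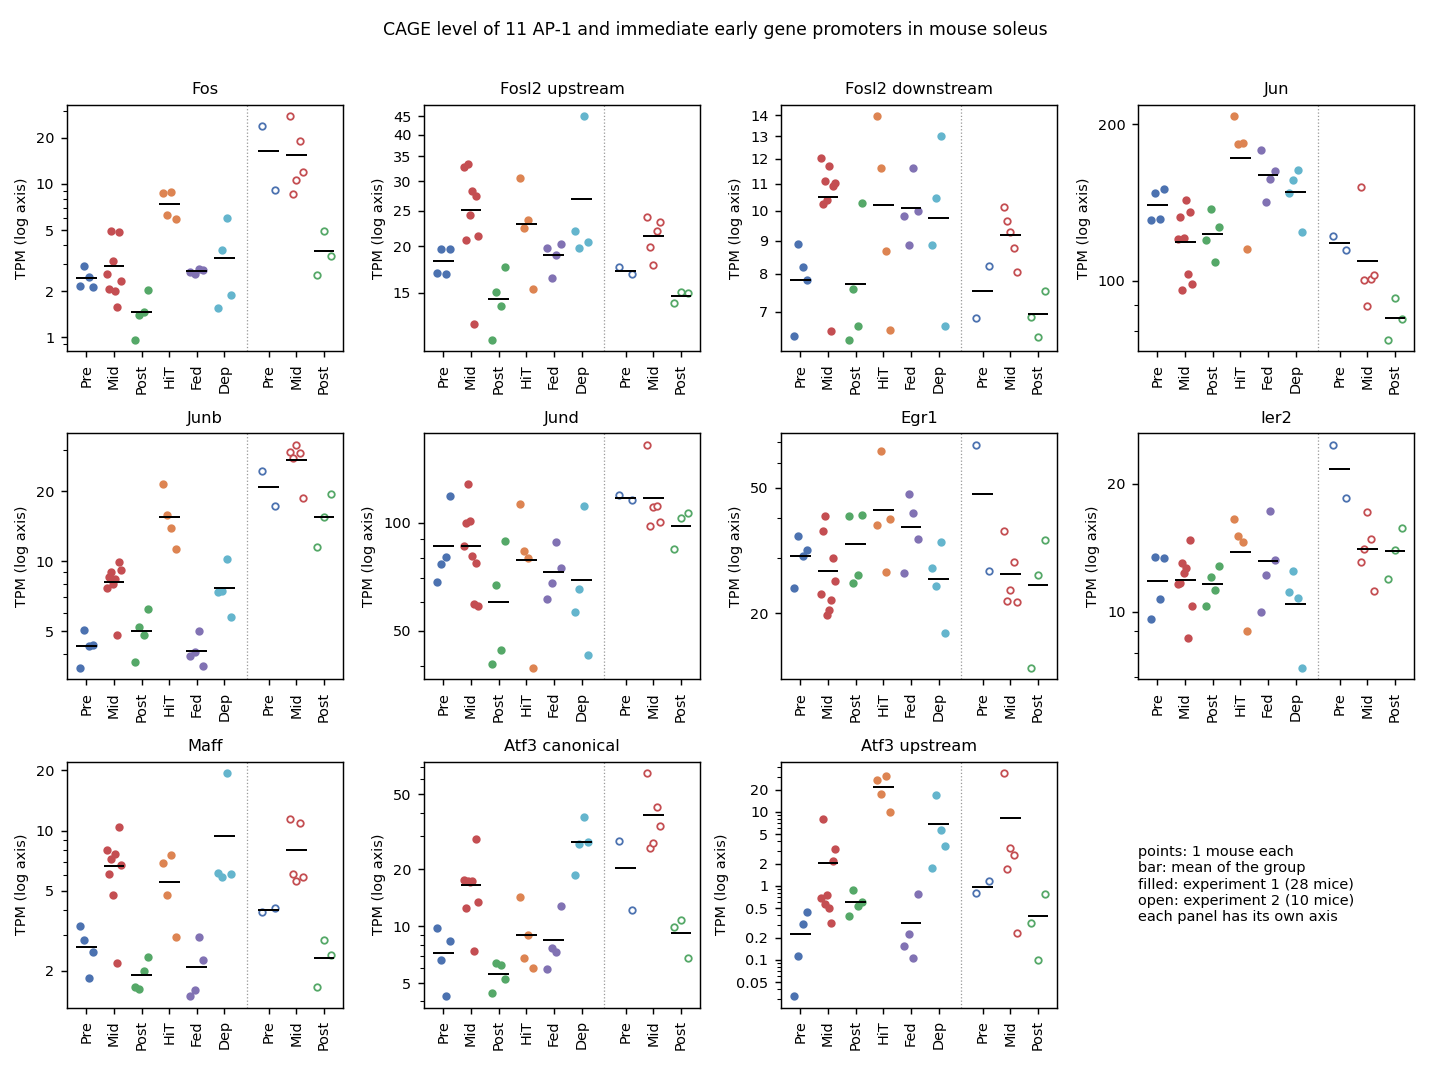
Level of each of the 11 promoters in TPM (vertical log axis, a different range in each panel) for every mouse by group, with experiment #1 to the left of the dotted line and experiment #2 to the right. Points are single mice and bars are group means. Fos lies between 5.94 and 8.87 TPM in the HiT mice and at or below 6.03 TPM in the other mice of experiment #1, and the upstream promoter of Atf3 lies between 10.1 and 30.9 TPM in the HiT mice and between 0.0322 and 0.451 TPM in the Pre mice.

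Among the Fos proteins, which cannot pair with each other and need a Jun partner, *Fos* had its highest mean level of experiment #1 in the HiT mice, fasted in the warm. Its level was 2.16, 2.93, 2.49 and 2.14 TPM in the 4 Pre mice, 2.67, 2.59, 2.79 and 2.75 TPM in the Fed mice and 0.962, 1.40, 1.45 and 2.04 TPM in the Post mice. In the 8 Mid mice it ran from 1.57 to 4.93 TPM with a median of 2.47 TPM. The HiT mice had 8.68, 6.27, 8.87 and 5.94 TPM, and the Dep mice had 1.56, 3.71, 6.03 and 1.89 TPM. Before the TMM scaling, the HiT range thus overlapped only with the mouse Dep 3. The TMM factor was 0.679 for HiT 4 and 1.09 for Dep 3, and a lower factor raises the scaled level. *Fos* was 1.82 ± 0.32 (log2 fold change ± SE) higher in the HiT than in the Pre mice (FDR 0.000101), and it was lower by 1.46 ± 0.26 in the Mid than in the HiT mice (log2 fold change -1.46, FDR 8.29e-05). It fell from Mid to Post by 1.04 ± 0.29 on the log2 scale (FDR 0.00785). From Pre to Mid its log2 fold change was 0.35 ± 0.28 (FDR 0.363).

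*Fosl2* encodes Fra-2, a Fos-family protein that is more stable than c-Fos. Its upstream promoter was at 18.3 ± 1.59 TPM in the Pre (SD, n = 4), 25.1 ± 6.94 TPM in the Mid (n = 8) and 14.4 ± 2.65 TPM in the Post mice (n = 4). Its downstream promoter was at 7.84 ± 1.04, 10.5 ± 1.71 and 7.71 ± 1.78 TPM in the same groups. The 2 promoters rose from Pre to Mid by log2 fold changes of 0.52 ± 0.17 (FDR 0.0178) and 0.50 ± 0.12 (FDR 0.00177), and they fell from Mid to Post by 0.82 ± 0.17 (FDR 0.0005) and 0.47 ± 0.12 (FDR 0.0024). The mouse Mid 6, with 12.3 and 6.53 TPM, lay within or below the Pre range at both. Both promoters were also higher in the HiT and in the Dep mice than in the Pre mice, by log2 fold changes between 0.47 and 0.70. The call of the upstream promoter from Pre to HiT (FDR 0.0417) was lost in 7 of the 28 fits without 1 mouse, those without any 1 of the 4 Pre mice, HiT 1, HiT 3 or HiT 4, up to an FDR of 0.0997. The upstream value of the Dep mouse 3 was 44.9 TPM, where the other Dep mice had 19.8 to 22.0 TPM, and without this mouse the rise of the upstream promoter from Pre to Dep was 0.45 with an FDR of 0.0592.

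*Junb* encodes a Jun protein that activates less strongly than c-Jun and has been linked to the maintenance of muscle mass. It rose in all 3 fasted groups and most in the warm one. The Pre mice had 3.47, 5.06, 4.33 and 4.36 TPM and the Fed mice 3.91, 4.08, 5.01 and 3.55 TPM. The Mid mice had 4.81 to 9.88 TPM with a median of 8.49 TPM. Before the TMM scaling, all of them apart from Mid 6 were above every Pre and Fed mouse. The TMM factor was 0.831 for Mid 6, against 1.15 and 1.21 for the mice above it, Pre 2 and Fed 3. The HiT mice had 21.4, 15.7, 13.9 and 11.3 TPM, above every other mouse of the experiment, and the Dep mice had 7.37, 7.46, 10.2 and 5.74 TPM. The Post mice were back at 3.68, 5.25, 4.82 and 6.24 TPM. *Junb* was higher by 1.01 ± 0.13 in the Mid (FDR 3.36e-06), by 1.00 ± 0.15 in the Dep (FDR 1.79e-05) and by 2.03 ± 0.15 in the HiT mice (FDR 3.62e-10), each on the log2 scale against Pre. From HiT to Mid its log2 fold change was -1.02 ± 0.12 (FDR 2.14e-07), and from Mid to Dep it was -0.01 ± 0.13 (FDR 0.988).

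*Jun* and *Jund* encode the other two Jun proteins, of which JunD is present in most cells without stimulation. They were the most abundant of the promoters, with *Jun* at 140 ± 10.3 TPM and *Jund* at 86.2 ± 22.4 TPM in the Pre mice (SD, n = 4). *Jun* was not called from Pre to Mid (log2 fold change -0.16 ± 0.09, FDR 0.177). It was higher in HiT than in Pre mice by 0.48 ± 0.10 (FDR 0.000634), with 207, 184, 184 and 115 TPM against 131 to 150 TPM, so that HiT 4 was below the Pre mice before the TMM scaling, whose factor for this library was the lowest, at 0.679. *Jun* was lower in Mid than in HiT mice (log2 fold change -0.63 ± 0.09, FDR 1.69e-06) and than in Fed mice (-0.33 ± 0.09, FDR 0.00421). *Jund* varied from 58.8 to 128 TPM within the Mid group and from 40.6 to 88.7 TPM within the Post group. Its fall from Mid to Post (log2 fold change -0.56 ± 0.19, FDR 0.0261) was its only call, and it was lost without the mouse Mid 3, Post 1 or Post 3, where the highest FDR was 0.117.

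*Maff* encodes a small Maf protein, which lacks an activation domain and pairs with other bZIP proteins. Its level was 3.35, 2.85, 1.85 and 2.48 TPM in the Pre mice and 1.49, 1.61, 2.96 and 2.27 TPM in the Fed mice. It was 2.20 to 10.4 TPM in the Mid mice, with a median of 6.95 TPM, and 1.66, 1.63, 1.99 and 2.35 TPM in the Post mice. All Mid mice but Mid 6 were above every Pre, Fed and Post mouse. The HiT mice had 6.91, 4.77, 7.53 and 2.94 TPM and the Dep mice had 6.18, 5.89, 19.4 and 6.05 TPM. The log2 fold change of *Maff* was 1.40 ± 0.31 from Pre to Mid (FDR 0.00117), 1.24 ± 0.34 from Pre to HiT (FDR 0.00622) and 1.95 ± 0.34 from Pre to Dep (FDR 0.00014), and the last was 1.46 without the mouse Dep 3. It was 1.78 ± 0.32 from Fed to Mid (FDR 0.000111) and -1.81 ± 0.32 from Mid to Post (FDR 8.98e-05). The Mid and HiT groups differed by 0.16 ± 0.29 (FDR 0.682).

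*Egr1*, a zinc-finger factor of the immediate early response, and *Ier2*, a nuclear protein of that response, did not pass the test from Pre to Mid. *Egr1* was at 30.3 ± 4.65 TPM in the Pre and 27.2 ± 7.78 TPM in the Mid mice (SD), and *Ier2* at 11.8 ± 1.92 and 11.9 ± 1.83 TPM. The HiT mice had 38.1, 65.6, 27.1 and 39.7 TPM of *Egr1* and 16.5, 15.1, 14.6 and 9.01 TPM of *Ier2*, and the groups overlapped. From HiT to Mid both were lower, *Egr1* by a log2 fold change of -0.76 ± 0.23 (FDR 0.00922) and *Ier2* by -0.31 ± 0.10 (FDR 0.0181). The *Egr1* call was lost without HiT 2 or HiT 4, and the *Ier2* call without HiT 3, with highest FDRs of 0.0775 and 0.105. From Pre to HiT, *Egr1* was higher by 0.70 ± 0.27 (FDR 0.0465), which did not hold in 14 of the 28 fits that left out 1 mouse.

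The canonical promoter of *Atf3* had its highest mean of experiment #1 in the mice kept from torpor. The Pre mice had 9.78, 6.62, 4.26 and 8.35 TPM, the Fed mice 5.91, 7.68, 7.30 and 12.8 TPM, the Post mice 4.41, 6.35, 6.28 and 5.28 TPM, and the HiT mice 14.3, 6.83, 8.97 and 6.04 TPM. The Mid mice had 7.41 to 28.8 TPM with a median of 17.2 TPM, and the Dep mice had 18.6, 27.3, 38.1 and 28.1 TPM. All Dep mice were thus above all Mid mice but Mid 7, and above every mouse of the other 4 groups. The log2 fold change was 1.25 ± 0.25 from Pre to Mid (FDR 0.00051), -1.56 ± 0.26 from Mid to Post (FDR 4.16e-05), 0.77 ± 0.24 from HiT to Mid (FDR 0.0135) and 1.06 ± 0.25 from Fed to Mid (FDR 0.0018). It was 2.12 ± 0.28 from Pre to Dep (FDR 5.35e-06) and 0.47 ± 0.28 from Pre to HiT (FDR 0.201). The call from HiT to Mid was lost without HiT 2 (FDR 0.0659).

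From Mid to Dep, the canonical *Atf3* promoter was higher by 0.88 ± 0.23 on the log2 scale (FDR 0.0427). By the exact permutation test on log2(TPM + 0.1), two-sided, the mean difference between the 8 Mid and 4 Dep mice was 0.81 (p = 0.0182, where the smallest possible p is 0.00202). The FDR rose above the threshold in 13 of the 28 fits without 1 mouse, up to 0.150, and the p of the permutation test passed 0.05 without Dep 2, Dep 3 or Dep 4, up to 0.0909. The log2 fold change itself stayed between 0.78 and 1.03. The other promoter called between these groups was that of *Jun*, higher in Dep by 0.41 ± 0.09 (FDR 0.0163), with 147, 157, 163 and 124 TPM in the Dep mice and 96.0 to 143 TPM (median 121 TPM) in the Mid mice. These 2 calls of 11 compare with 1.16% of all clusters higher in Dep. Neither was called without TMM normalization, in the fit of all 38 libraries or in the fit of the Mid and Dep mice only, so this comparison rests on the choice of fit.

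The upstream promoter of *Atf3* had its highest mean of experiment #1 in the HiT mice, where the macrophage markers were also highest. The Pre mice had 0.0322, 0.114, 0.301 and 0.451 TPM, the Fed mice 0.154, 0.221, 0.106 and 0.773 TPM, and the Post mice 0.398, 0.887, 0.536 and 0.613 TPM. The Pre levels rest on between 1 and 12 tags per library. The HiT mice had 27.03, 17.7, 30.9 and 10.1 TPM. The Dep mice had 1.73, 16.9, 5.74 and 3.51 TPM. In the Mid group, 5 mice lay between 0.314 and 0.754 TPM, and Mid 7, Mid 8 and Mid 2 had 2.20, 3.12 and 8.08 TPM. Every HiT mouse was above every other mouse of the experiment but Dep 2, whose level lay within the HiT range. The macrophage markers summed to at most 94.2 TPM in the Dep mice, and their relation to this promoter was not tested. The fitted log2 fold change was 6.74 ± 1.01 from Pre to HiT (FDR 1.2e-05), 5.11 ± 0.98 from Pre to Dep (FDR 0.000359) and 3.27 ± 0.93 from Pre to Mid (FDR 0.00898), and its size depends on the few tags of the Pre mice. From HiT to Mid it was -3.47 ± 0.62 (FDR 7.88e-05). Between Mid and Dep it was 1.84 ± 0.62 (FDR 0.112), and the exact permutation test gave a difference of 1.99 in mean log2(TPM + 0.1) with p = 0.0485. This permutation test was not repeated with mice left out.

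**Figure D2:**
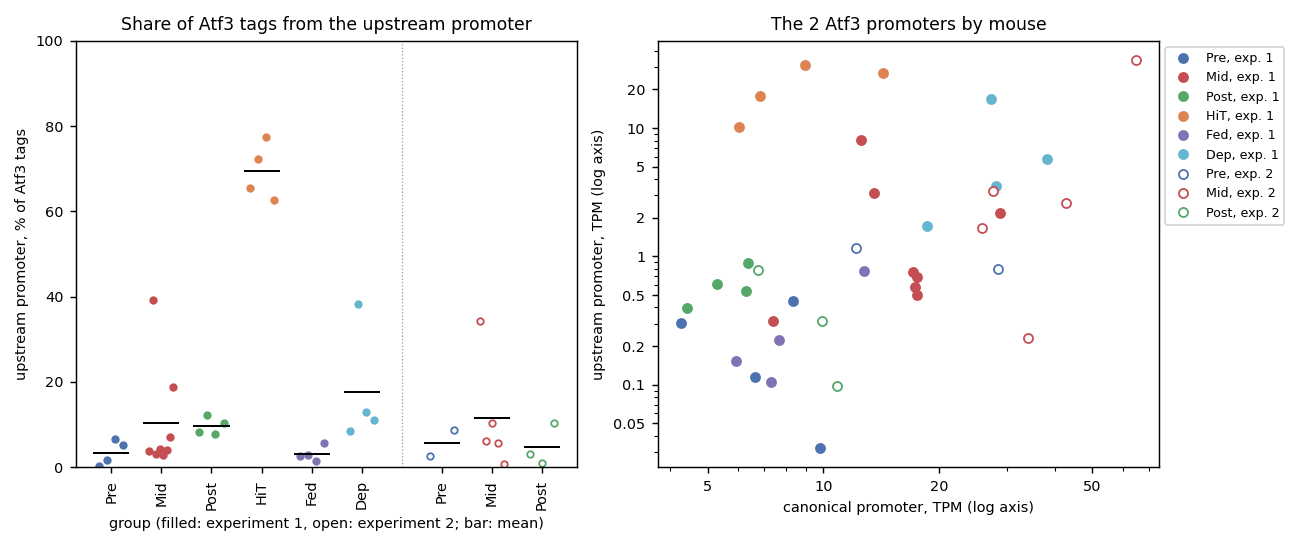
Left, the share of each mouse's Atf3 tags that came from the upstream promoter (vertical axis in percent, groups on the horizontal axis, bars are group means); right, the upstream against the canonical level of each mouse in TPM on log axes. The HiT mice lie between 62.6 and 77.5% and no other mouse lies above 39.1%. In the right panel the HiT mice are high in the upstream level. Their canonical level lies between 6.04 and 14.3 TPM, against 4.26 to 9.78 TPM in the Pre mice and 18.6 to 38.1 TPM in the Dep mice.

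As a share of all *Atf3* tags, the upstream promoter took 65.4, 72.2, 77.5 and 62.6% in the HiT mice. It took 2.81 to 39.1% in the Mid mice, 8.50, 38.2, 13.1 and 11.1% in the Dep mice, 1.43 to 5.71% in the Fed mice and 0.328 to 6.61% in the Pre mice. In the Post mice it took 7.87 to 12.2%, above every Pre and Fed mouse. The mean share was 59.0 percentage points higher in the HiT than in the Mid mice (p = 0.00202 by exact two-sided permutation, which is as low as it can go; 0.00606 after Benjamini-Hochberg adjustment over 3 comparisons). It was 51.7 points higher in the HiT than in the Dep mice (exact p = 0.0286, adjusted 0.0429). The Dep and Mid mice differed by 7.34 points (exact p = 0.396). The summed level of both promoters was 30.5 ± 12.2 TPM in the HiT mice, 18.5 ± 6.35 TPM in the Mid mice and 35.0 ± 11.4 TPM in the Dep mice (SD). The sums of the HiT and Dep mice were not compared by a test.

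**Figure D3:**
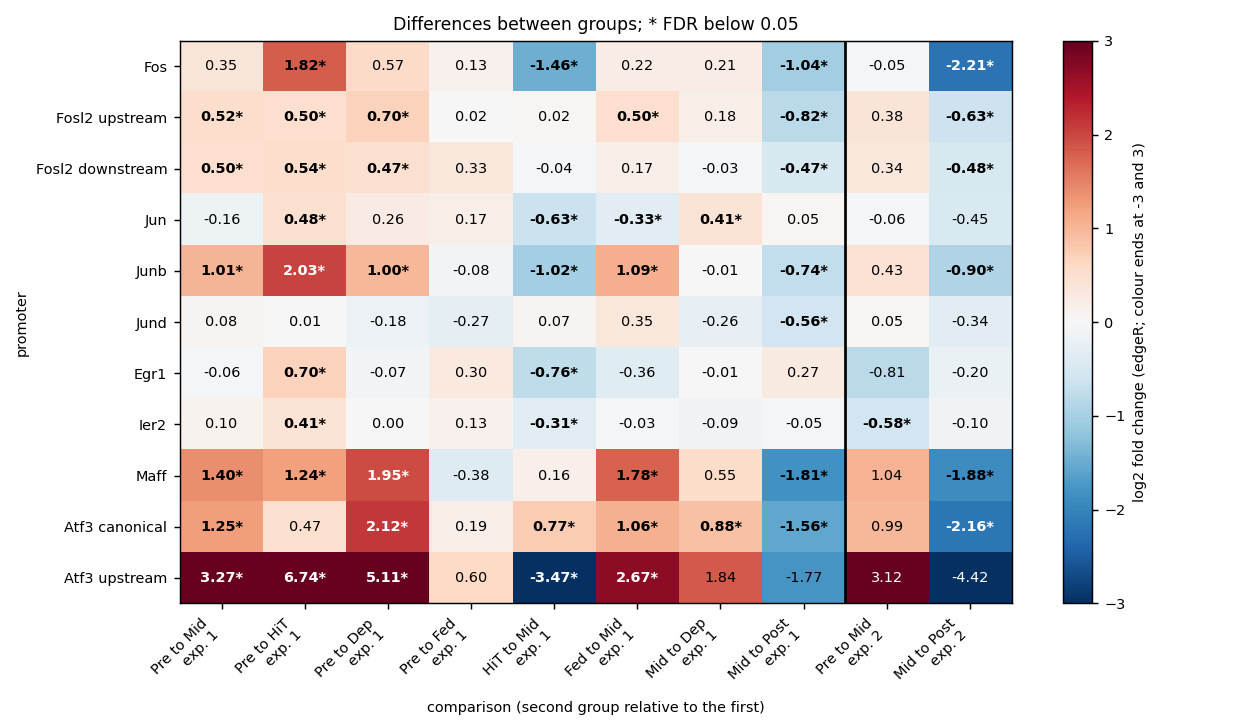
Log2 fold change (edgeR) of each promoter (rows) in 8 comparisons of experiment #1 and 2 of experiment #2 (columns), the second group relative to the first, as numbers and as colours that end at -3 and 3; an asterisk marks an FDR below 0.05. From HiT to Mid, Fos, Jun, Junb, Egr1, Ier2 and the upstream Atf3 promoter are lower and the canonical Atf3 promoter is higher (0.77).

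Set against each control in turn, the promoters fell into different groups. From HiT to Mid, 1 promoter was higher (canonical *Atf3*), against 19.2% of all clusters, and 6 were lower, against 21.8%. From Fed to Mid, 5 were higher (*Junb*, *Maff*, the upstream *Fosl2* and both *Atf3* promoters), against 16.6%, and *Jun* alone was lower, against 18.6%. The calls of the upstream *Fosl2* and the upstream *Atf3* promoter were each lost without Fed 2 or Fed 3, with highest FDRs of 0.0601 and 0.0523. From Pre to HiT 9 promoters were higher, against 18.5% of all clusters, but only 3 of the 11 were called without TMM normalization, and 6 without Pre 1. From Pre to Dep 6 were higher, against 13.7% of all clusters. Between the groups with food, from Pre to Fed, edgeR called 0 of 11, against 11.2% of all clusters, with 1 at an unadjusted p below 0.05 and 0 called by DESeq2. The Pre, HiT, Fed and Dep comparisons share the Pre or the Mid mice, so their values stand side by side and are not independent. The median log2 fold change over the 11 promoters was 0.50 from Pre to Mid, -0.74 from Mid to Post and 0.54 from Pre to HiT, where the medians over all clusters were 0.01, -0.01 and 0.04.

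The Mid and Post groups were also compared in experiment #2. From Mid to Post, 6 of the 11 promoters fell (8.65% of all clusters did), namely those of *Fos*, *Junb*, *Maff*, the canonical *Atf3* and both *Fosl2* promoters, and each of them also fell in experiment #1. *Fos* was at 27.6, 8.59, 10.6, 19.03 and 11.96 TPM in the 5 Mid mice and at 2.55, 4.93 and 3.42 TPM in the 3 Post mice, without overlap (log2 fold change -2.21 ± 0.49, FDR 0.0119). The canonical *Atf3* promoter was at 64.9, 25.9, 27.5, 42.7 and 34.01 TPM in the Mid mice and at 9.92, 10.8 and 6.76 TPM in the Post mice (log2 fold change -2.16 ± 0.40, FDR 0.0041). For *Maff* the log2 fold change was -1.88 ± 0.33 (FDR 0.00326). The upstream *Atf3* promoter was at 33.9 TPM in the mouse Mid 9 and at 0.23 to 3.21 TPM in the other 4 Mid mice, and its log2 fold change of -4.42 ± 1.53 did not pass the threshold (FDR 0.0755). With 1 mouse left out, the count ran from 4 (without Post 5) to 7. *Fos* lost its call without Post 5 (FDR 0.0539) and the downstream *Fosl2* promoter without Post 5 or Post 6 (FDR up to 0.0766).

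The lane nearly coincided with the group in this comparison, because 4 of the 5 Mid libraries were in lane 3 and the other Mid library, Mid 13, was in lane 4 with all 3 Post libraries. Within lane 4, where the lone Mid mouse is assumed to vary like the Post mice, only the canonical *Atf3* promoter was called (log2 fold change -2.05 ± 0.26, FDR 0.0363). *Fos* had -1.90 ± 0.37 (FDR 0.0846), *Maff* -1.53 ± 0.38 (FDR 0.136), *Junb* -0.45 ± 0.27 (FDR 0.475), and the *Fosl2* promoters had -0.82 ± 0.13 (upstream, FDR 0.0579) and -0.38 ± 0.22 (downstream, FDR 0.458). The upstream *Atf3* promoter had 0.61 ± 1.11 there (FDR 0.831), opposite in sign to the value over both lanes.

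From Pre to Mid, *Ier2* was the only member promoter called in experiment #2. It was lower in the Mid mice (log2 fold change -0.58 ± 0.16, FDR 0.0417; 4.44% of all clusters were lower), with 24.7 and 18.5 TPM in the 2 Pre mice and 11.2 to 17.1 TPM in the 5 Mid mice. This call was lost in 7 of the 10 fits that left out 1 mouse, and in the 6 libraries of the lane that held both Pre mice (FDR 0.105). The 2 Pre mice differed widely: Pre 5 had 23.9, 68.7 and 28.4 TPM of *Fos*, *Egr1* and canonical *Atf3*, and Pre 6 had 9.12, 27.3 and 12.2 TPM. *Atf3* canonical (0.99 ± 0.43, FDR 0.185), *Maff* (1.04 ± 0.37, FDR 0.105) and *Junb* (0.43 ± 0.22, FDR 0.258) had positive log2 fold changes that did not pass the threshold. The levels of *Fos* and *Junb* were higher in experiment #2 than in experiment #1 in all 3 groups, for example 18.8 to 31.7 TPM of *Junb* in the Mid mice against 4.81 to 9.88 TPM. The experiments differed in mice, in sequencing runs and in the summed slow and fast muscle markers. The slow markers summed to 7856 to 22231 TPM in experiment #1 and to 19470 to 29750 TPM in experiment #2. The methods of the study name a NextSeq or a HiSeq platform for the experiments. These differences cannot be told apart.

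**Figure D4:**
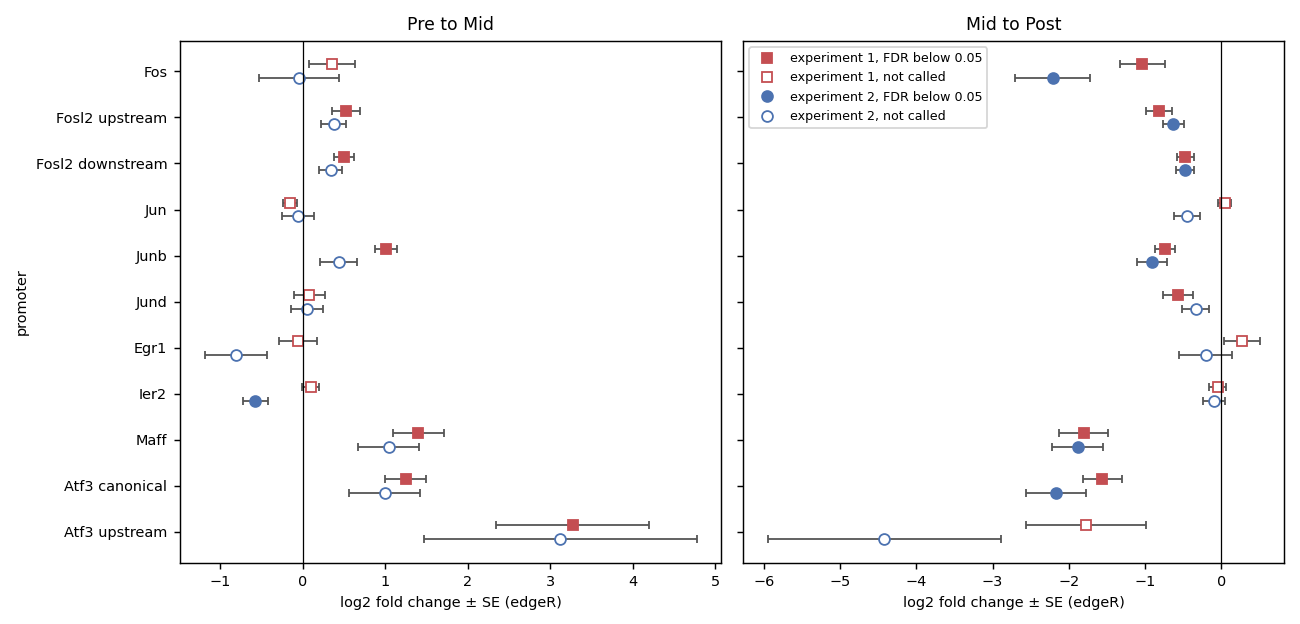
Log2 fold change ± SE (edgeR, horizontal axis) of the 11 promoters from Pre to Mid (left) and from Mid to Post (right), with squares for experiment #1 and circles for experiment #2, filled where the FDR was below 0.05. From Mid to Post the canonical Atf3 promoter has -1.56 and -2.16, and from Pre to Mid Ier2 has 0.10 and -0.58.

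The difference between the experiments was tested by the interaction of group and experiment. edgeR called 0 of the 11 promoters for the Pre to Mid and 0 for the Mid to Post, as it called 0% of all 10819 clusters in either case. At an unadjusted p below 0.05 were 1 and 2 of the 11 promoters, and DESeq2 called 0. For *Ier2* from Pre to Mid the difference in log2 fold change was -0.62 ± 0.17 (FDR 0.537), and for *Fos* from Mid to Post it was -1.20 ± 0.53 (FDR 0.749).

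The spread between mice of one group was large for part of these promoters. The biological coefficient of variation was 0.780 for the upstream *Atf3* promoter, 0.324 for *Maff*, 0.305 for *Fos*, 0.267 for the canonical *Atf3* promoter and 0.264 for *Egr1*, where the median over all clusters was 0.130. Among the 500 clusters nearest in level, the upstream *Atf3* promoter was at percentile 98.6, *Egr1* at 96.4, *Jund* at 94.6 and the canonical *Atf3* promoter at 92.8. *Ier2* and the downstream *Fosl2* promoter, at percentiles 34 and 35.6, varied less than most clusters of their level.

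The clusters most like the canonical *Atf3* promoter over the 28 mice of experiment #1, by Pearson correlation of log2(TPM + 0.1), were those of *Abra* (r = 0.927), *Samd4* (0.925), *Zbtb38* (0.923), *Gm15446* (0.917) and *Ell* (0.917). *Abra* encodes a striated muscle protein that binds actin and activates SRF-dependent transcription. *Maff* was the most alike of the other member promoters (r = 0.844), and the upstream *Atf3* promoter had r = 0.381. The clusters most like *Fos* were *Adgrd1* (0.853), *Pvr* (0.819), *Adamts4* (0.808), *Ms4a6c* (0.807) and *Vcan* (0.803), and *Junb* had 0.753. The correlations describe 28 mice of 6 groups, which share the group differences.

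Other immediate early genes moved in both directions. Of 23 with a cluster (of 30 listed), 8 rose and 7 fell from Pre to Mid, where 15.4% of all clusters were higher and 14.8% lower, with a median log2 fold change of 0.22 (0.01 over all clusters). The largest changes were those of *Myc* (2.04 ± 0.25, FDR 1.5e-06), the growth regulator, of *Csrnp1* (2.00 ± 0.23), of *Gadd45b* (1.58 ± 0.29), a stress sensor, of *Zfp36* (1.38 ± 0.20), which promotes the decay of AU-rich mRNAs, and of *Btg2* (1.33 ± 0.24), an antiproliferative gene. From Mid to Post, where 17.5% of all clusters were higher and 17.5% lower, 3 rose and 11 fell, among them *Csrnp1* (-2.20 ± 0.24) and *Myc* (-2.14 ± 0.25). In the HiT mice 12 were higher than in the Pre mice (18.5% of all clusters), including *Myc* (1.96 ± 0.27) and *Socs3* (1.95 ± 0.26), which encodes a feedback inhibitor of cytokine signalling. From HiT to Mid 3 rose and 8 fell (19.2% and 21.8% of all clusters), with *Socs3* at -2.53 ± 0.21, the nuclear receptor *Nr4a1* at -1.59 ± 0.30 and *Egr2* at -1.48 ± 0.30. The mean level of *Socs3* was 12.3 TPM in the HiT mice and 2.18 to 3.71 TPM in the other groups. From Mid to Dep 2 rose (1.16% of all clusters), *Dusp1* (0.71 ± 0.15, FDR 0.016), a phosphatase of MAP kinases, and *Ier5* (0.45 ± 0.12). Neither was tried in the other fits, some of which left no member promoter called in this comparison. In experiment #2, 9 of the 23 rose from Pre to Mid (5.3% of all clusters), with *Myc* at 2.23 ± 0.32, and 12 fell from Mid to Post (8.65%).

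Of the other AP-1, ATF and Maf genes, 9 of 14 had a cluster. From Pre to Mid 3 rose and 1 fell, where 15.4% of all clusters were higher and 14.8% lower. *Mafk*, a small Maf gene like *Maff*, rose by 1.52 ± 0.14 on the log2 scale (FDR 2.6e-08) and *Mafg* by 0.58 ± 0.11, and *Maf* had -0.74 ± 0.21 (FDR 0.0088). *Mafk* was at 47.0 ± 7.15 TPM in the Pre, 129 ± 33.8 TPM in the Mid, 83.9 ± 23.6 TPM in the HiT and 127 ± 26.8 TPM in the Dep mice (SD), and it also rose in experiment #2 (1.34 ± 0.25, FDR 0.0101). From Mid to Post 2 rose and 4 fell (17.5% of all clusters in each direction), with *Mafk* at -1.52 ± 0.14. Of the genes that signal to these promoters, SRF, its ternary complex partners and the MAP kinases, 17 of 20 had a cluster. From Pre to Mid 2 of them rose and 2 fell, shares near or below those of all clusters (15.4% and 14.8%), and the called log2 fold changes ran from -0.37 (*Elk3*) to 0.29 (*Map2k3*). From Pre to Dep 1 rose and 8 fell (13.7% and 12.1% of all clusters), among them *Mapk9* (-0.69 ± 0.16) and *Srf* (-0.64 ± 0.21, FDR 0.023).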

How the data were processed

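CAGE libraries that were not amplified (nAnT-iCAGE) were sequenced from the soleus muscles of 38 mice, 28 in experiment #1 and 10 in experiment #2. The authors trimmed the reads, aligned them to mm10 with BWA and HISAT2 (versions not given in the sources used here) and clustered the 5′ ends over all libraries. The deposited table holds the tag count of each cluster per library, in which reads that map to several places had been assigned by the authors to 1 of them. The deposited TPM values are these counts scaled to 1000000 mapped tags per library, and they were used for the levels printed.

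Counts were compared with edgeR 4.0.16 (R 4.3.3) (TMM scaling, quasi-likelihood F test), in 1 fit per experiment without covariates, over all clusters with any tag in the fitted libraries. Folds are TMM-scaled and printed TPM levels are not. P-values were adjusted by the Benjamini-Hochberg method over all clusters tested (FDR) and called below 0.05. They measure the spread between mice. Both Atf3 promoters from Mid to Dep and the Atf3 shares were also tested by exact permutation over mice. Of these tests, only that of the canonical promoter was repeated under alternatives. Alternatives were DESeq2 1.42.0, the edgeR likelihood ratio test, other scalings and filters, other sets of libraries, a replicate block and each library left out. They were run for the member promoters, and the genes of the other lists were tested in the main fit only, in both experiments. The code was tested on simulated data.

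The 10 genes and all gene lists were chosen with earlier results of these data known. From the lists, the genes named were at most 5 per comparison, by absolute log2 fold change among those called, and 1 gene so chosen is not reported here. Which Atf3 promoter is called canonical follows the RefSeq start. The Atf3 promoter whose position the text of the study gives is the one called upstream here. Promoter sequences come from RefSeq, and those of the other 5 promoters are not shown here. Libraries held 9359994 to 39176649 tags.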

Additional observations from a re-analysis of the deposited data

Results flagged for a closer look

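In 84 groups of 4, 5 or 8 mice (a promoter or the Atf3 share in 1 group), 11 had a mouse far from the others by Dixon's criterion, which chance alone gives in about 1 in 20 groups. The mouse Dep 3 had 44.9 TPM of the upstream Fosl2 promoter (the next Dep mouse had 22.0 TPM) and 19.4 TPM of Maff (next 6.18 TPM). The mouse Mid 6 was low, with 6.53 TPM of the downstream Fosl2 promoter (next 10.2 TPM) and 4.81 TPM of Junb (next 7.66 TPM). The criterion was applied to TPM without TMM scaling. The TMM factor of Mid 6 was the lowest of the Mid mice of experiment #1, at 0.831, and a lower factor raises the scaled level. The mouse Mid 7 had 28.8 TPM of the canonical Atf3 promoter (next 17.5 TPM). The mouse Mid 2 had 8.08 TPM of the upstream Atf3 promoter (next 3.12 TPM), which made 39.1% of its Atf3 tags (next 18.7%), and in the mouse Dep 2 this share was 38.2% (next 13.1%). In experiment #2 the mouse Mid 9 had 151 TPM of Jun (next 103 TPM), 165 TPM of Jund (next 111 TPM) and 33.9 TPM of the upstream Atf3 promoter (next 3.21 TPM). In TPM without TMM scaling, Mid 9 had the highest level of its group at 9 of the 11 promoters. How often it was highest over all clusters was not counted. The cause was not tested for any of these mice.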

How the results depend on the processing

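Without TMM normalization, 0 in place of 2 promoters were called from Mid to Dep, 3 in place of 9 from Pre to HiT, and 0 in place of 1 from Pre to Mid in experiment #2. From Mid to Dep, 0 were called in the fit of all 38 libraries and 0 in the fit of the compared groups only. From Pre to Mid in experiment #2, DESeq2 called 2, and the 6 libraries of lane 3 alone, an alternative chosen after seeing the data, gave 0. From Mid to Post in experiment #2, the 4 libraries of lane 4 alone, chosen likewise, gave 1 in place of 6. The cause was not tested. With each library left out, the count ran from 0 to 2 from Mid to Dep (0 without Dep 2) and from 0 to 2 from Pre to Mid in experiment #2, and the Atf3 difference by permutation from 0.64 to 0.99. From Pre to HiT it ran from 6 to 9, and in the test over 6 groups from 8 to 11. The other 86 values under alternatives that left out no library kept their side, and no called value reversed its sign under any alternative. Among called promoters, 348 values kept and 38 lost their call in such fits, and 1216 kept and 58 lost it with a library left out. Without TMM the median log2 fold change of all clusters moved by over 0.1, to -0.12 from Fed to Mid, 0.11 from HiT to Mid, -0.18 from Pre to Dep and -0.13 from Pre to HiT. Mice with the same replicate number did not deviate together (mean r 0.00784 over 60 pairs, of which 20 were over 0.1), so the numbers give no pairing. With the replicate block, 6 promoters were called from HiT to Mid and 8 from Pre to HiT, where 7 and 9 were called without it, and the other counts of experiment #1 stayed as they were. In experiment #2 no block could be fitted, because the Mid mice share no number with the other groups. The depth limits the upstream Atf3 promoter most, which had 1 to 12 tags in the Pre mice.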
